A study of Schizosaccharomyces pombe with 144 samples.

Results

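The comparison sets cells at 6 h of meiosis, the time of the meiotic divisions and of early spore formation, against cells at 3 h, in meiotic prophase, across the whole RNA table of a fission yeast (Schizosaccharomyces pombe) time course. All 5157 genes of the table are members, and 2 of the 144 samples of the series carry the comparison, 1 total RNA library at each time. Both libraries came from the same strain, SPB2819, a diploid of 1 mating type (h-/h-) heteroallelic for ade6 (ade6-M210/ade6-M216), in which pat1 is deleted (pat1::NatR) and replaced by the analog-sensitive allele pat1-as(L95A)::HygR. The strain also carries a lacO array beside centromere 2 marked with KanR and ura4+, lacI-GFP at his7+ and the mating-type gene construct lys1::MatPc-Bleo, and the clr4 gene is wild type, per the titles. The samples therefore share every allele and differ in time alone. The model forces entry into meiosis by loss of Pat1 kinase activity, in cells that have not mated, so the course is not that of a zygote. The table also holds 1 library for each other hour from 0 h to 8 h and 1 of asynchronously growing cells ("mitosis") of that strain.

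Fission yeast meiosis runs as a cascade of transcription. Early genes serve premeiotic DNA replication, cohesion and recombination, which takes place while the nucleus is pulled to and fro by its telomeres (horsetail movement) and linear elements stand in for a synaptonemal complex. The forkhead factor Mei4 then drives middle genes for the divisions and for the forespore membrane, which grows from the spindle pole bodies and encloses each haploid nucleus. Late genes build the spore wall.

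RPKM is the read count scaled to gene length and to the reads of the library, as deposited. With 1 library a side there is no replicate check and no test. A gene was called higher or lower by size alone, at a difference of 2 or more in log2(RPKM + 1), that is 4-fold, where either library reached 5 RPKM. Differences are written below as 6 h minus 3 h on this scale, and they understate the change of low genes. A run of 4 values without hours gives the libraries of 3 h, 4 h, 5 h and 6 h in order, and a pair of values gives 3 h and 6 h. The libraries held 18111631 reads in genes at 3 h and 14989335 at 6 h, the shallowest of the 10 libraries. A gene of median length at 5 RPKM stood for 162 reads at 3 h (exact Poisson 95% interval 138 to 189) and 134 at 6 h (112 to 159), which covers counting error only. The composition of the RNA shifted: the 100 genes with most reads took 25.1% of the reads at 3 h and 39.8% at 6 h, and 1 gene, isp3, took 1.11% and 7.88%. The median difference of all genes was -0.62 as deposited and 0.01 once each library was divided by its median ratio over the 10 libraries, so the counts of a list are given under both scalings where they differ. In bulk RNA, fewer cells of a kind and less RNA per cell cannot be told apart.

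The stage markers describe the libraries, whose titles give the hour of meiosis and no stage. All 9 prophase markers, from rec8 to meu13, were 4-fold or more lower at 6 h, and their summed level was 2645 RPKM at 3 h and 204 at 6 h. Of 7 division markers 6 were higher, with a sum of 2905 against 7948 RPKM, and all 5 spore markers were higher, with a sum of 11616 against 86959 RPKM. Single genes held much of these sums. The lower division marker, spo5, gave 2232 RPKM at 3 h, and isp3 gave 11031 and 78240 RPKM of the spore sums. Markers of mating cells, 4 in number, summed to 495 RPKM at 3 h and 1416 at 6 h, with 1 called higher. The 3 markers of growing cells summed to 436 and 148 RPKM, against 1981 RPKM in mitosis. None of these markers was at 0 in either library, and the part of residual cells of other stages in the results was not tested.

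At 6 h, 166 of 4936 genes past the filter were 4-fold or more higher than at 3 h (3.36%) and 361 were lower (7.31%). After rescaling 311 of 4935 genes were higher (6.3%) and 121 lower (2.45%), so the direction of the split rests on the scaling. All 166 genes called higher as deposited were also called after rescaling, and the 121 called lower after rescaling were all among the 361. Every one of the 361 kept a negative difference after rescaling. Rescaling divided the 3 h library by 1.17 and the 6 h library by 0.744, which raises every difference by a limited amount. These overlaps therefore follow from the scaling and are no support for the calls. The higher genes took 3.14% of reads at 3 h and 29.4% at 6 h, while the lower genes took 11.3% and 1.73%. The median higher gene stood at 32.2 RPKM at 3 h, 281 RPKM at 6 h and 4.80 RPKM in mitosis. The median lower gene stood at 83.7, 14.6 and 33 RPKM. In growing cells, 84 of the 166 higher genes (50.6%) were under 5 RPKM, against 37 of the 361 lower genes (10.2%) and 302 of all 4936 (6.12%). Counting error alone left most calls clear, since the 95% counting interval of the RPKM ratio lay beyond 4-fold for 157 of the higher genes and 313 of the lower ones.

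**Figure D1:**
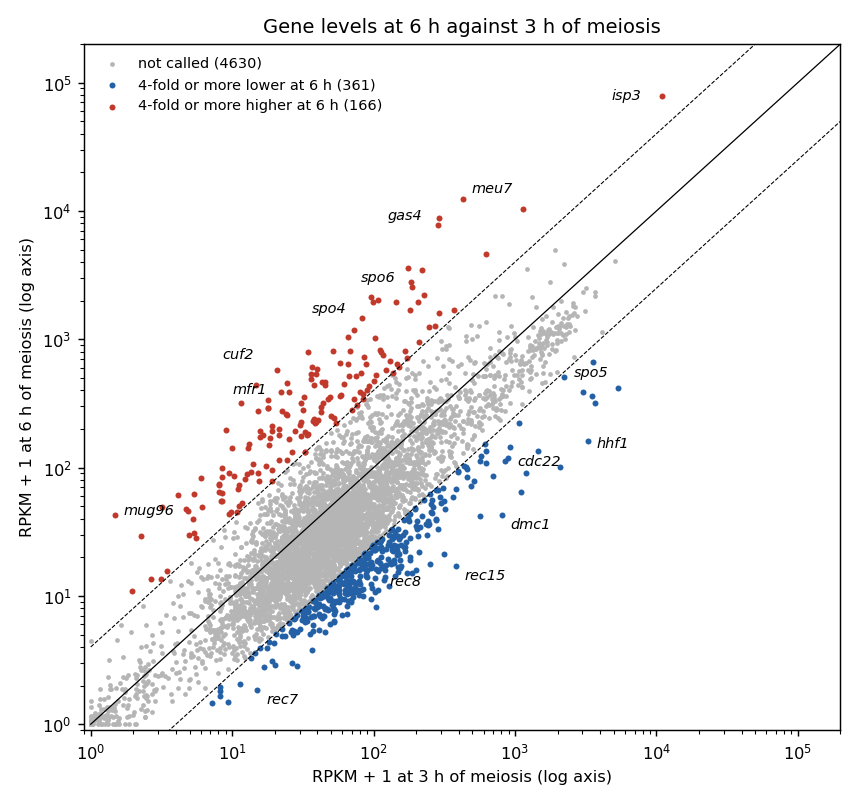
RPKM + 1 of each of the 5157 genes at 3 h (x axis, log) and 6 h (y axis, log), 1 library each. Red points are the 166 genes 4-fold or more higher at 6 h, blue points the 361 lower, grey points the genes not called; the solid line marks equal levels and the dashed lines 4-fold. Most grey points lie below the solid line, as the median difference of -0.62 gives, and isp3 stands at the top right.

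Most targets of the S-phase transcription factor were lower at 6 h. Of 16 targets of MBF, the factor that turns on genes at the start of S phase, 10 were 4-fold or more lower and none higher (7 lower after rescaling), with a median of -2.31 (-1.70 rescaled) against -0.62 for all genes. The gene of the ribonucleotide reductase large subunit, cdc22, read 893 and 117 RPKM, a difference of -2.92 (-2.28 rescaled). Before 3 h the hourly levels of cdc22 were 1861, 323 and 751 RPKM, and they lay between 117 and 148 RPKM in all 5 libraries from 4 h on. Of the 10 lower MBF targets 7 had their highest RPKM of the course at 0 h and 3 at 3 h. The licensing factor gene cdc18, whose product loads the replicative helicase, read 138 and 17.0 RPKM (-2.95). The dUTPase gene dut1 read 148 and 15.9 RPKM (-3.14), and cdt2, a substrate receptor of the Cul4 ubiquitin ligase, 239 and 28.6 RPKM (-3.02). Genes of the MBF corepressors Yox1 and Nrm1 were lower too, yox1 at 59.1 against 6.05 RPKM (-3.09) and nrm1 at 126 against 18.4 RPKM (-2.72). The S-phase cyclin gene cig2 passed 4-fold in neither scaling, at 118 and 52.4 RPKM (-1.16). Genes of the fork itself were called at a share near that of all genes. Among 22 licensing and fork genes, 2 were called lower and none after rescaling, against 7.31% and 2.45% of all genes. The list median was -0.96 (-0.33 rescaled). The lower genes were spd1, the inhibitor of ribonucleotide reductase (300.1 and 51.6 RPKM, -2.52), and cdc45, part of the replicative helicase (46.4 and 9.56 RPKM, -2.17).

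Core histone genes had the lowest median of all 32 lists. Of 9 members, 8 passed 4-fold downward and 7 after rescaling, with a median of -3.54 (-2.89 rescaled). All 9 had their highest RPKM of the 9 hours at 3 h. The H3 gene hht1 had levels of 448, 389, 1157, 3549, 490, 503, 668, 655 and 543 RPKM in the hourly libraries, 0 h to 8 h. Its 3 h library thus stood alone, and the level at 6 h was below that of mitosis (870 RPKM), for a difference of -2.41 that lost its call after rescaling (-1.76). The H4 genes hhf3 and hhf1 differed by -4.34 (2069 and 101 RPKM) and -4.33 (3268 and 161 RPKM). The H2A genes hta1 and hta2 differed by -4.11 and -3.28, the only H2B gene of the list, htb1, by -3.69 (5369 and 415 RPKM), and the remaining H3 gene of the lower ones, hht3, by -3.54. The exception was the H3 gene hht2, at 4145 and 1137 RPKM (-1.86), named after its values were seen. Histone genes share near-identical coding sequences, so the division of reads among copies is uncertain. The gene ams2, which encodes a GATA factor of histone gene transcription and lies outside the lists, read 127.5 RPKM at 3 h and 10.9 at 6 h (-3.43).

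Genes of meiotic break formation and linear elements were lower as a group. In the list of double-strand break proteins and linear elements, 11 of 14 members passed 4-fold downward and none upward (10 lower and 1 higher after rescaling), with a median of -2.87. The gene of Rec12, the topoisomerase-like protein that cuts the DNA, read 107 RPKM at 3 h and 10.1 at 6 h (-3.27). Its partner gene rec15 had the lowest difference of all genes past the filter, -4.48, at 381 and 16.2 RPKM. The hourly course of rec15 was 197, 223, 269, 381 and 54.2 RPKM through 4 h and between 15.2 and 20.2 RPKM afterwards, against 1.27 RPKM in mitosis. The linear element genes rec10 and hop1 differed by -2.81 (145 and 19.8 RPKM) and -3.87 (312 and 20.4 RPKM), and mek1, the checkpoint kinase of meiotic recombination, by -3.52 (171 and 14.1 RPKM). The partner gene rec7 was low throughout, at 14.1 and 0.86 RPKM, which stood for 474 and 24 reads (-3.02). The exception was mde2, also needed for break formation, named after its values were seen. Its levels through the 4 hourly libraries from 3 h were 75.3, 225, 240 and 297 RPKM, a difference of 1.97, past 4-fold only after rescaling (2.61).

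Strand exchange and crossover genes were lower in part. Of 20 genes, 8 were called lower and none higher (5 lower and 1 higher after rescaling), with a median of -1.32 (-0.72 rescaled). The gene higher after rescaling was exo1, named after its values were seen, at 108 and 354 RPKM (1.71, and 2.35 rescaled). The meiotic recombinase gene dmc1 had hourly levels of 115, 113, 236, 804, 282, 76.0, 41.8, 45.2 and 52.9 RPKM, 0 h to 8 h, and 1.60 in mitosis. It was highest at 3 h by a wide margin, and the difference was -4.23 (-3.59 rescaled). The gene of the strand-exchange accessory factor Meu13, meu13, read 564 and 41.2 RPKM (-3.74), and sfr1, a mediator of strand exchange, 180 and 18.1 RPKM (-3.24). The gene mus81, for the nuclease that resolves joint molecules into crossovers, read 208 and 20.9 RPKM (-3.26).

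Cohesin genes were lower in part. Of 16 members, 7 were lower and none higher (6 lower and 1 higher after rescaling), with a median of -1.87 (-1.27 rescaled). The meiotic kleisin gene rec8 went through 248, 38.7, 16.5 and 16.7 RPKM hour by hour (-3.81), after 173 to 222 RPKM in the hours before 3 h. Its partner gene rec11, for the arm cohesin subunit, read 151 and 20.2 RPKM (-2.84). The genes of both SMC subunits, psm1 (-2.97) and psm3 (-3.11), and those of the cohesion regulators Eso1 (eso1, -2.64) and Pds5 (pds5, -2.62) were lower, and kept that call after rescaling. Of the genes that act on cohesin at anaphase or protect it, 3 had positive differences that did not pass 4-fold as deposited. The separase gene cut1 read 10.2 and 16.04 RPKM (0.61), sgo1, whose product protects centromeric cohesion in the first division, 67.6 and 104 RPKM (0.62), and the securin gene cut2, named after its values were seen, 79.5 and 257 RPKM (1.68, and 2.33 rescaled). The other shugoshin gene of the list, sgo2, was at 66.3 and 20.2 RPKM (-1.67). The gene moa1, for a factor of monopolar kinetochore attachment and named after its values were seen, had levels of 26.4, 34.1, 15.3 and 4.37 RPKM hour by hour (-2.35, and -1.78 rescaled).

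The genes of telomere clustering and horsetail movement were lower at 6 h in 8 of 13 cases, with a median of -2.17. After rescaling bqt1 and rap1 were the 2 lower genes, sad1, for a nuclear envelope protein of the spindle pole body, was higher (2.18), and the median was -1.56. The bouquet gene bqt1, which links telomeres to the spindle pole body, read 94.8 and 11.4 RPKM (-2.95), and rap1, for a telomere protein, 43.0 and 6.01 RPKM (-2.65). The dynein anchor gene mcp5 went through 110, 44.4, 24.9 and 17.1 RPKM (-2.62). The dynein chain genes dic1 and dlc1 differed by -2.50 and -2.38. The dynein heavy chain gene dhc1, named after its values were seen, was low and not called, at 5.17 and 7.26 RPKM (0.42, and 0.99 rescaled). Outside the lists, mcp6, for an organiser of the horsetail microtubules, read 141 and 13.2 RPKM (-3.32), and arp1, a subunit of the dynein activator dynactin, 148 and 14.4 RPKM (-3.28).

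The list of meiotic entry regulators held few calls, and 6 of its 8 genes had a difference below 0. Of the 8 genes 1 was higher and 2 lower (1 and none after rescaling), with a median of -0.90 (-0.26 rescaled). Of all genes 3.36% were higher and 7.31% lower (6.3% and 2.45% rescaled). The calls include spo5, whose product is needed at the second division. The gene mei2, for the RNA-binding protein needed to enter meiosis and to go through the first division, went through 597, 967, 735 and 346 RPKM (-0.78). The gene of Ste11, the main factor of sexual differentiation, read 55.2 and 26.7 RPKM (ste11, -1.02), and pat1, which in this strain is the analog-sensitive copy, 72.6 and 28.4 RPKM (-1.32). The gene spo5, for an RNA-binding protein needed for the second division and sporulation, was among the highest at 3 h. Its levels from 2 h to 7 h were 624, 2232, 2161, 1285, 506 and 292 RPKM, a difference of -2.14 (-1.49 rescaled). The poly(A)-binding protein gene crp79 went the other way, from 166 to 813 RPKM (2.29). Genes of mating and pheromone signalling had a median of 0.05 (0.69 rescaled). Of 20 genes 1 was higher and 1 lower (2 and none after rescaling, with the pheromone receptor gene mam2 added). These counts are near the shares of all genes. The higher gene was mfm3, for a precursor of the M-factor pheromone, at 7810.5 RPKM at 0 h and, from 2 h to 7 h, at 524, 146, 466, 705, 637 and 435 RPKM. It was lowest at 3 h, so its difference of 2.12 follows a low point of the course. The lower gene, mei3, encodes the inhibitor of Pat1 and read 7.22 and 0.81 RPKM, or 184 and 17 reads (-2.19).

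Of 9 transcription factor genes of the middle and late programme, 3 were called higher and none lower under both scalings. Their median was 0.31 (0.89 rescaled), and 4 of the 9 had a difference below 0. The gene of Mei4, the forkhead factor of the middle genes, had levels of 106, 237, 347, 267, 127 and 84.1 RPKM in the 6 libraries from 3 h on, against 7.77 RPKM in mitosis. Its highest level fell between both times compared, and the difference for mei4 was 1.33 (1.97 rescaled), under 4-fold in each scaling. The largest difference of the list was that of cuf2, for a copper-fist factor of middle meiosis, which went through 19.6, 55.9, 222 and 573 RPKM (4.80). The bZIP factor genes atf31 and atf21 read 16.9 and 290 RPKM (4.02) and 41.7 and 272 RPKM (2.68). The forkhead genes that control mitotic transcription were lower and short of 4-fold, sep1 at 38.8 and 14.9 RPKM (-1.32) and fkh2 at 101 and 46.1 RPKM (-1.11).

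Division regulators separated into genes that were high at 6 h and a few that had passed their highest level. Of 16 genes 7 were higher and 3 lower (9 and none after rescaling), with a median of 1.68 (2.32 rescaled). The 16 include dli1, a dynein chain gene at 32.3 and 9.48 RPKM (-1.67), which entered the list through a synonym. The kinase gene spo4 and its regulatory partner spo6 encode a meiotic relative of the Dbf4-dependent kinase. The hourly levels of spo4 were 31.4, 32.7, 32.7, 82.4, 287, 1014, 1457, 826 and 336 RPKM (difference 4.13). Those of spo6 from 3 h to 7 h were 185, 232, 1010, 2549 and 2270 RPKM (3.78). Both genes were below the log2 midpoint of their 3 h and 6 h levels at 4 h and past it at 5 h. The gene of Mes1, which restrains the anaphase-promoting complex and allows entry into the second division, read 136 and 549 RPKM. Its difference of 2.00 lies at the threshold, and the 95% counting interval of the mes1 ratio runs from 1.95 to 2.07 on the log2 scale. The meiotic cyclin gene rem1 read 18.05 and 209 RPKM (3.46), and mug27, a kinase gene of forespore membrane growth, 57.9 and 364 RPKM (2.63). The lower genes were spo5 and moa1, given above, and crs1, for a meiotic cyclin, which went through 145, 67.9, 29.4 and 23.5 RPKM (-2.57, and -1.94 rescaled).

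Cyclin and Cdc2 genes held calls in both directions. Among 15 genes of cyclins, Cdc2 and direct regulators, 1 was higher and 2 were lower (2 and none after rescaling). Of all genes 3.36% were higher and 7.31% lower (6.3% and 2.45% rescaled). The list median was -0.73, close to that of all genes. The gene of the cyclin-dependent kinase cdc2 read 135 and 77.1 RPKM (-0.80, and -0.16 rescaled). The mitotic cyclin gene cdc13 read 151 and 446 RPKM (1.56, and 2.21 rescaled), and cdc25, the phosphatase that activates Cdc2, 38.05, 102.7, 124 and 76.5 RPKM over the same hours (0.99). The B-type cyclin gene cig1 read 50.7 and 7.70 RPKM (-2.57, and -1.97 rescaled).

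The anaphase-promoting complex, the ubiquitin ligase that starts anaphase, was high at 6 h across its list. Of 17 genes 16 had a difference above 0, 4 were 4-fold or more higher and 1 lower (9 and none after rescaling), and the median was 1.39 against -0.62 for all genes. The list includes its activators and its inhibitor Mes1. The gene of the meiosis-specific activator Mfr1 had levels of 23.4, 53.9, 169, 452 and 559 RPKM from 3 h to 7 h (mfr1, 4.22). The general activator gene slp1 read 91.9 and 434 RPKM (2.23), and the subunit gene apc14 79.0 and 388 RPKM (2.28). The subunit gene apc5 fell just short, at 23.2 and 95.3 RPKM (1.99). The 1 lower gene was srw1, for the activator that holds mitotic cyclins low in G1, at 30.1 and 6.63 RPKM (-2.03, and -1.44 rescaled).

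The lists of structural genes of the divisions held small counts of calls. Of all genes 3.36% were higher and 7.31% lower (6.3% and 2.45% rescaled). Of 25 kinetochore and spindle checkpoint genes none was higher and 3 were lower (1 after rescaling), with a median of -0.54. The checkpoint gene bub3 read 76.8 and 10.1 RPKM (-2.81), cnp1, the centromeric histone H3 gene, 52.97 and 9.92 RPKM (-2.31), and cnp3, for the centromere protein CENP-C, 66.7 and 15.3 RPKM (-2.05). Among 19 genes of spindle motors and microtubule proteins none was higher and 2 were lower (1 higher and 1 lower after rescaling), with a median of -0.50. They were alp6, for a subunit of the gamma-tubulin complex (50.4 and 6.84 RPKM, -2.71), and mal3, for the plus-end protein EB1 (200.1 and 37.1 RPKM, -2.40). The kinesin-8 gene klp5 read 63.7 and 191 RPKM (1.57, and 2.22 rescaled). In the septation initiation network, which in meiosis acts on forespore membrane closure, 2 of 13 genes were higher and none lower (4 and none after rescaling). These were mug27, given above, and dma1, a ubiquitin ligase gene, which went through 84.3, 195, 499.6 and 724 RPKM (3.09).

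The group that builds the forespore membrane, with the altered spindle pole body from which it grows, held many higher genes. Of 21 genes 9 were higher and 1 lower (10 and 1 after rescaling), with a median of 1.33 (1.97 rescaled), and 19 had a difference above 0. The gene meu14, for a protein of the leading edge of the membrane, had levels of 227, 612, 1402, 2225 and 1834 RPKM from 3 h to 7 h, against 4.29 in mitosis (3.28). The gene spo3, for a protein of the membrane itself, read 14.2 and 273 RPKM (4.17). The meiotic septin genes spn5 and spn6 read 181 and 1701 RPKM (3.22) and 102 and 1031 RPKM (3.32). The gene of Spo7, a pole body protein needed to start the membrane, read 27.0 and 191 RPKM (spo7, 2.78). The lower gene spo9 encodes an isoprenoid biosynthesis enzyme and read 96.1 and 10.4 RPKM (-3.08).

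**Figure D2:**
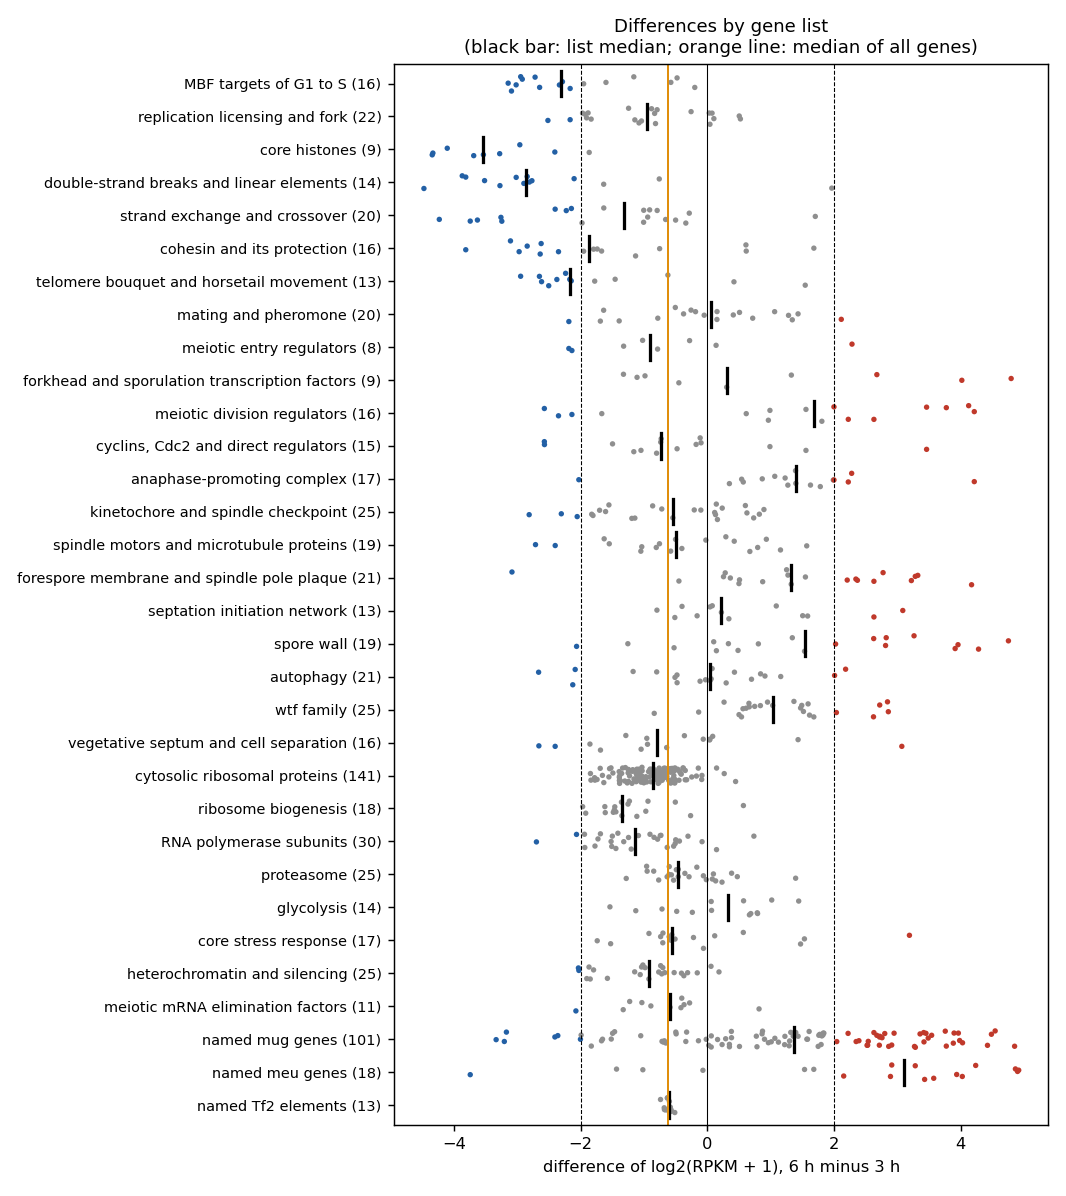
Difference of log2(RPKM + 1), 6 h minus 3 h, of each member past the filter (points) in the 32 gene lists, with the number of members in parentheses. Red and blue points lie past the dashed 4-fold lines, black bars are list medians, and the orange line is the median of all genes, -0.62. Histones (-3.54) have the lowest list median and the genes named meu (3.10) the highest.

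The spore wall list held the gene with the highest level at 6 h, isp3. Of 19 genes 9 were higher and 1 lower (10 and none after rescaling), with a median of 1.54 (2.19 rescaled). The spore surface protein gene isp3 had levels of 5465, 11031, 28358, 51668, 78240, 106257 and 134840 RPKM from 2 h to 8 h, against 91.2 in mitosis. Its level was higher in each later library, and the difference was 2.83 (3.48 rescaled). The gene gas4, for a glucan-remodelling enzyme of the spore wall, read 286 and 7767 RPKM (4.76), and mok14, for a spore wall glucan synthase, 98.8 and 1944 RPKM (4.28). The glucanase genes agn2 and eng2, whose products open the ascus, read 220 and 3444 RPKM (3.96) and 204 and 1968 RPKM (3.27). The amylase family gene mde5 read 184 and 2789 RPKM (3.91). The gene meu10, for a surface protein of the spore wall, was already at 1221 RPKM at 3 h and read 3543 at 6 h (1.54).

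Genes of the wtf family, which includes spore killers that code for a poison and an antidote, were higher in part. Of 25 members 23 had a difference above 0, 5 were 4-fold or more higher (11 after rescaling) and none lower, with a median of 1.03. The highest differences were those of wtf19 (87.3 and 640 RPKM, 2.86), wtf23 (48.4 and 354 RPKM, 2.85), wtf4 (81.1 and 541 RPKM, 2.72), wtf13 (57.2 and 358 RPKM, 2.63) and wtf18 (53.03 and 221 RPKM, 2.04). The member nearest the list median was wtf3, with 17.7 and 37.3 RPKM, and 121 at 8 h (1.03). The median level of the family was 27.1 RPKM at 3 h and, over the last 3 hours, 61.6, 112 and 184 RPKM. Copies are near-identical in places, so their values are uncertain one by one.

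Autophagy genes, needed to supply amino acids for sporulation, held calls in both directions. Of 21 genes 2 were higher and 3 lower (2 and 1 after rescaling), against 3.36% higher and 7.31% lower of all genes (6.3% and 2.45% rescaled), and the median was 0.04. The gene of the membrane marker Atg8 read 208 and 949 RPKM, and 1526 at 8 h (atg8, 2.18), and psp3, for a serine protease, 149 and 604 RPKM (2.01). Its conjugation enzyme genes atg7 and atg3 read 144 and 21.9 RPKM (-2.66) and 80.7 and 17.7 RPKM (-2.12), and the kinase gene atg1 read 75.4 and 17.0 RPKM (-2.09).

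Genes named for their course in meiosis made up the largest blocks. Such names were given for expression in meiosis, so their presence is no separate evidence, and only genes that keep the name in the table are counted. Of 18 genes named meu, 12 were higher and 1 lower (14 and 1 after rescaling), with a median of 3.10 and the highest difference of all genes, 4.92, for meu17, a glucosidase gene at 291 and 8844 RPKM. The amylase family gene meu7 had levels of 426, 1170.4, 5291, 12445 and 19538 RPKM from 3 h to 7 h (4.87), and meu27 13.8 and 442 RPKM (4.90). Of 101 genes named mug, 36 were higher and 6 lower (52 and 3 after rescaling), with a median of 1.37. Among them mug137, a BAR-domain protein gene, read 94.5 and 2141 RPKM (4.49), and mug97 64.4 and 1036 RPKM (3.99). The gene mug96 was at 0.48 RPKM, or 4 reads, at 3 h and 41.7 RPKM, or 290 reads, at 6 h (4.85), and the 95% counting interval of its ratio runs from 5.08 to 8.34 on the log2 scale. The gene mug146 stood at 8.06 RPKM at 3 h and, over the last 4 hours, at 38.5, 194, 750.4 and 1231 RPKM (4.43), so it was higher still after 6 h.

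Lists of growth and stress genes held few calls, and the septum list held calls in both directions. Of all genes 3.36% were higher and 7.31% lower (6.3% and 2.45% rescaled). None of 141 cytosolic ribosomal protein genes was called under either scaling, with a median of -0.85 (-0.21 rescaled) and a range from -1.85 to 0.45. The member nearest that median, rpl3702, read 693 and 383 RPKM, and the paralogous copies of these genes share reads. None of 18 ribosome biogenesis genes was called, with a median of -1.35 (-0.71 rescaled), and gar2, the nucleolin gene, read 212 and 53.4 RPKM (-1.97). Of 30 RNA polymerase subunit genes 2 were lower (1 after rescaling), rpb4 at 234 and 35.3 RPKM (-2.70) and rpc34 at 39.9 and 8.77 RPKM (-2.07). None of 25 proteasome genes was called as deposited, with a median of -0.46, and none of 14 glycolysis genes, with a median of 0.32. After rescaling 1 gene of each was higher, pre1 (2.04) and pgk1 (2.09), for a proteasome core subunit and phosphoglycerate kinase. In the stress list, 1 of 17 genes was higher (3 after rescaling, with pyp2 and tps1 added), the metallothionein gene zym1, which went through 1129, 4831, 9432 and 10334 RPKM (3.19). Of 16 septum and cell separation genes past the filter 1 was higher and 2 lower (2 and 1 after rescaling). The lower ones were agn1, the glucanase that separates daughter cells, at 73.3 and 10.8 RPKM (-2.66), and cfh2, at 165 and 30.5 RPKM (-2.40). The septum gene adg2 went through 2607, 3044, 2733 and 721 RPKM (-1.85).

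Heterochromatin genes, whose products silence repeats and are a subject of the series, held 2 calls. Of 25 members 2 were lower as deposited and none was called after rescaling, against 7.31% and 2.45% lower of all genes. The list median was -0.92 (-0.33 rescaled). The gene of the H3K9 methyltransferase clr4 read 16.4 RPKM at 3 h and 8.19 at 6 h (-0.92), and swi6, for the HP1 protein that reads the mark, at 98.9, 67.1, 45.7 and 27.8 RPKM (-1.80, and -1.16 rescaled). Both called genes stood just past the threshold, mit1, a remodeller gene, at 19.5 and 4.00 RPKM (-2.04), and clr6, a histone deacetylase gene, at 134 and 32.0 RPKM (-2.03). In the set of factors that eliminate meiotic mRNA from growing cells, 1 of 11 was lower (none after rescaling), pab2, at 110 and 25.4 RPKM (-2.07), and the median was -0.59. The 13 Tf2 retrotransposons, near-identical copies, had a median of -0.60 and none was called.

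Outside the lists 80 genes were higher and 281 lower. Among genes with a symbol, the largest positive differences were those of the hexose transporter ght6 (4.38), npg1 (3.84), the meiotic PUF-family gene mpf1 (3.77), omh4, a mannosyltransferase gene (3.77), the palmitoyltransferase subunit gene erf4 (3.62) and mde7, for an RNA-binding protein (3.60). They were followed by the ion channel gene trp663 (3.53), the proton pump gene pma2 (3.47), cid11, a poly(A) polymerase gene (3.40), pdi4 (3.37), the F-box gene pof2 (3.20) and rit1 (3.15). The largest negative differences were those of the acid phosphatase gene pho1 (1201 and 89.6 RPKM, -3.73) and the PHD finger gene phf1 (103.3 and 7.16 RPKM, -3.68). Next came ams2, given above, rmp1, for a subunit of ribonuclease MRP (-3.35), mcp6 and arp1, given above, the Smc5-Smc6 gene nse1 (-3.27), the exonuclease gene rex4 (-3.19), the checkpoint clamp gene hus1 (-3.16), msl1, a U2 snRNP gene (-3.14), dak2 (-3.12) and the origin-binding protein gene abp2 (-3.11). Of genes with a systematic name alone, SPAC10F6.15 (10.5 and 320 RPKM, 4.80), SPBC56F2.03, annotated as the actin-like protein Arp10 (16.9 and 333 RPKM, 4.23), SPBC28E12.02 (4.11) and SPAC13G6.08 (4.04) had the largest positive differences. The largest negative ones were those of SPAC17C9.15c (-3.65), SPAC27D7.11c (1455 and 134 RPKM, -3.43), SPCC63.13 (-3.26) and SPAC1039.02 (-3.17).

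Within several gene families some members were called and others were not. These families were put together after the values were seen, so they illustrate the calls and are no support for them. Of 7 septin genes the 4 that act in sporulation were higher, spn2 (367 and 1702 RPKM), spn5, spn6 and spn7 (129 and 670 RPKM), while the mitotic septin genes spn1 (66.3 and 19.9 RPKM, -1.69), spn3 (41.5 and 32.1 RPKM, -0.36) and spn4 (67.1 and 26.9 RPKM, -1.29) were not. Of 4 activators of the anaphase-promoting complex, mfr1, slp1 and SPAC13G6.08 (35.8 and 606 RPKM, annotated as the fizzy-related Fzr2) were higher and srw1 was lower (not called after rescaling). Of 9 glucan synthase genes 3 were higher (4 after rescaling, with bgs1 added), mok14, bgs2 (36.1 and 228 RPKM, 2.63) and mok11 (31.5 and 132 RPKM, 2.03). The cell wall synthase genes ags1 (0.04), bgs3 (0.09) and bgs4 (-0.96) were not. Nor were mok12 (7.39 and 8.01 RPKM, 0.10) and mok13 (47.6 and 84.1 RPKM, 0.81), which stand in the spore wall list. The glucanosyltransferase gene gas4 was higher, gas2 was lower (433 and 102.7 RPKM, -2.06, and -1.42 rescaled), and gas1 and gas5 differed by 0.28 and -1.32. Among 8 hexose transporter genes ght6 was the sole one called, at 173 and 3618 RPKM, against 916 and 318 RPKM (-1.52) for ght5, the main high-affinity transporter. The plasma membrane proton pump gene pma1 read 300.3 and 121 RPKM (-1.30) and its paralogue pma2 11.9 and 142 RPKM (3.47). At 6 h both pump genes stood at similar RPKM, and at 8 h pma2 read 920 RPKM and pma1 140 RPKM. Paralogues share sequence, and how shared reads were counted is not given in the sources used here.

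**Figure D3:**
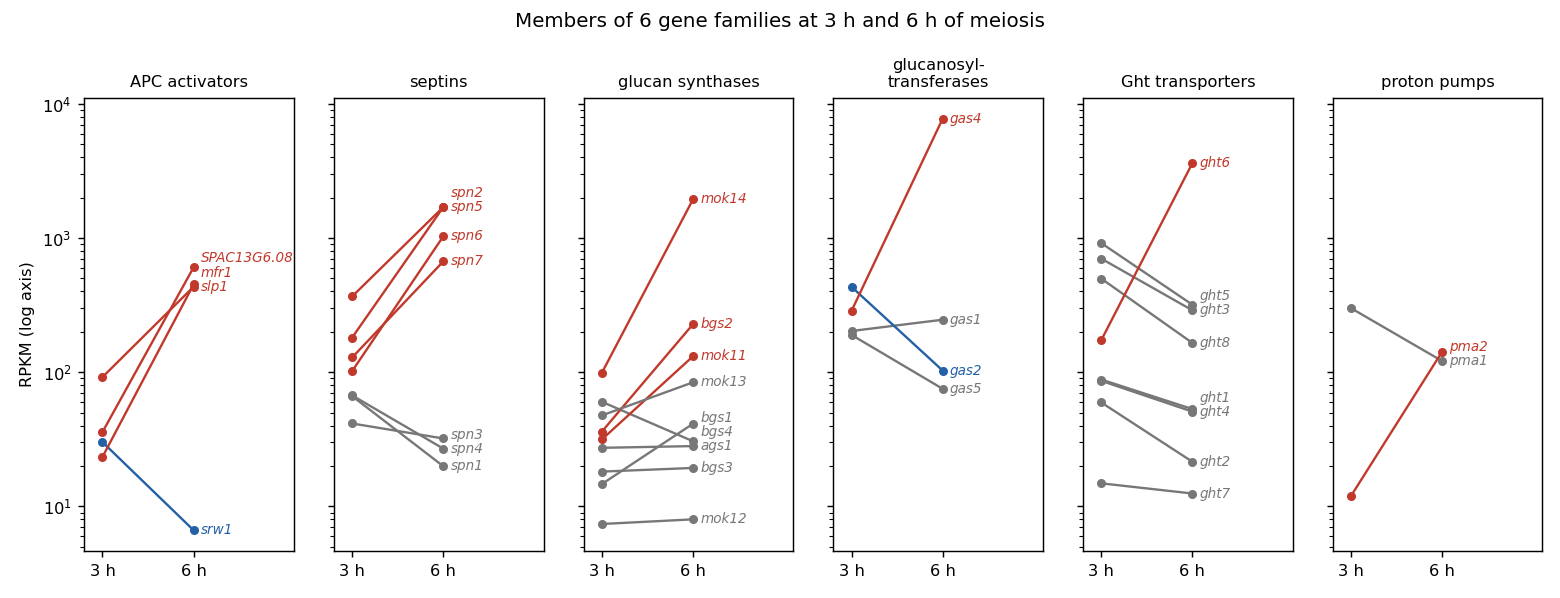
RPKM (log axis) at 3 h and 6 h of each member of 6 gene families, 1 library at each time, joined by a line per gene. Red lines are genes 4-fold or more higher at 6 h, blue lines lower, grey lines not called. In the septin panel spn2, spn5, spn6 and spn7 are higher at 6 h (670 to 1702 RPKM) and spn1, spn3 and spn4 are not (19.9 to 32.1 RPKM).

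The 4 h and 5 h libraries, which the comparison did not use, show when the levels passed from one state to the other. For each called gene the midpoint between its 3 h and 6 h levels was taken on the log2 scale. At 4 h, 127 of the 361 lower genes (35.2%) and 20 of the 166 higher genes (12.05%) were past it. At 5 h the counts were 352 (97.5%) and 156 (94.0%). After rescaling, 261 lower genes (72.3%) and 4 higher genes (2.41%) were past the midpoint at 4 h, so the lower genes led under both scalings, by more after rescaling. All 8 lower histone genes were past the midpoint at 4 h, as were 5 of 7 lower cohesin genes, 7 of 10 MBF targets and 7 of 11 genes of the double-strand break list. Of the lower bouquet genes 3 of 8 were past it at 4 h. Among higher members, none of 9 spore wall genes, 1 of 9 forespore membrane genes and 1 of 7 division regulators were past the midpoint at 4 h, and all of these were past it at 5 h.

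**Figure D4:**
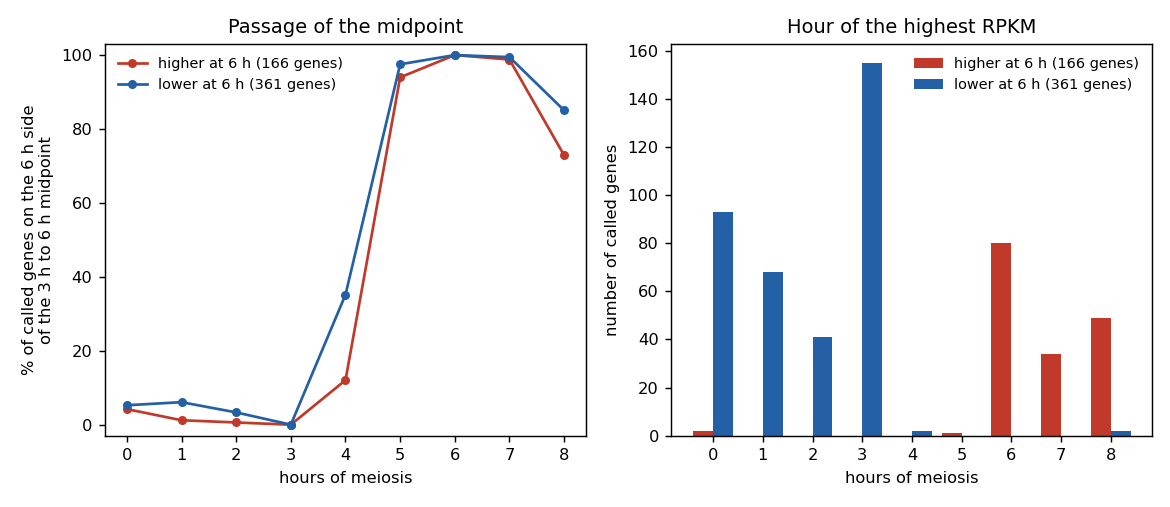
Left, the percentage of the 166 higher (red) and 361 lower (blue) genes whose level at each hour lay on the 6 h side of the midpoint between their 3 h and 6 h levels. Right, the number of these genes with their highest RPKM of the course at each hour. At 4 h 35.2% of the lower and 12.05% of the higher genes were past the midpoint. Of the lower genes 155 were highest at 3 h, and 80, 34 and 49 higher genes at 6 h, 7 h and 8 h. The choice of genes favours 3 h for the lower and 6 h for the higher genes.

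After 6 h the called genes parted. The highest RPKM of the course fell at 6 h for 80 of the 166 higher genes, at 7 h for 34 and at 8 h for 49, where the choice of genes favours 6 h. The 80 had a median of 285 RPKM at 6 h and 101 at 8 h, and include spo4, spo6, mes1, meu14 and the 4 sporulation septin genes. The 49 had a median of 221 RPKM at 6 h and 447 at 8 h, and include isp3, mde5, agn2, eng2, mug146, pma2 and rit1. Of the 361 lower genes 155 were highest at 3 h and 93 at 0 h, with medians at 6 h of 14.8 and 15.1 RPKM. Here the choice of genes favours 3 h. At 8 h, 121 of the higher genes (72.9%) and 307 of the lower genes (85.0%) were still on the 6 h side of their midpoint. Growing cells lay on the 6 h side for 4 of the higher genes and 199 of the lower ones (55.1%).

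**Figure D5:**
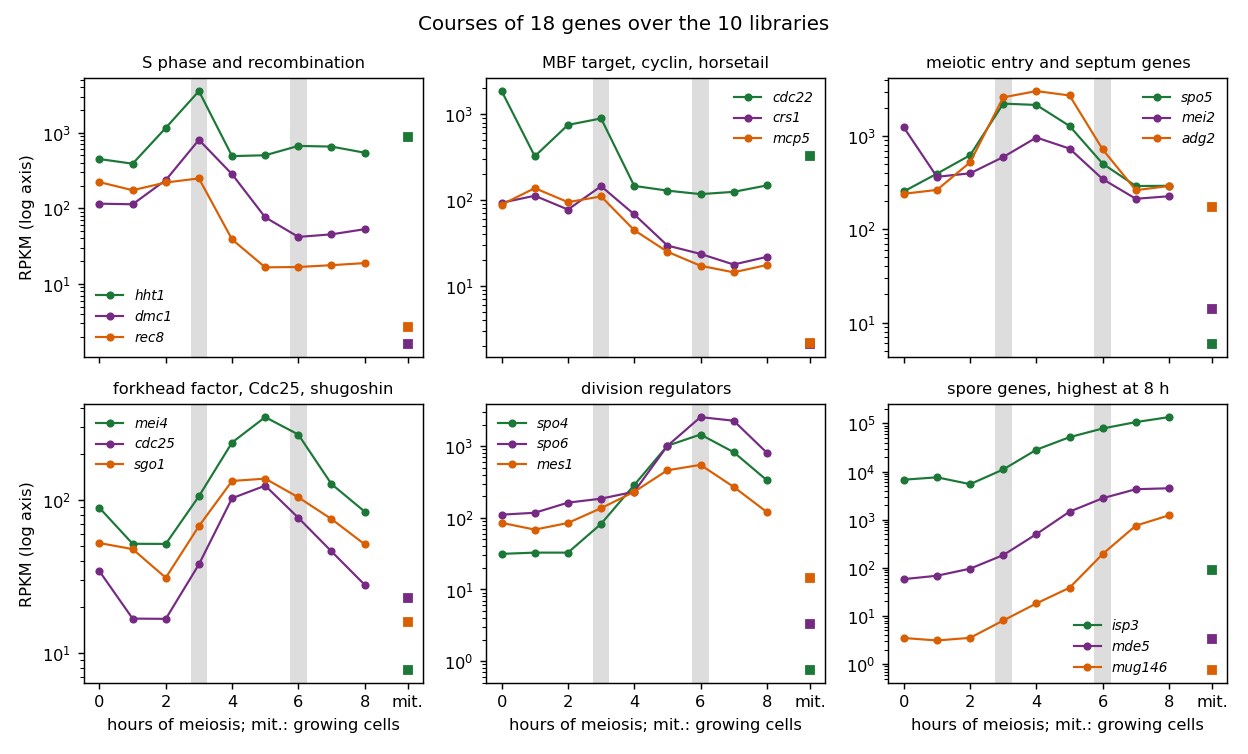
RPKM (log axis) of 18 genes at 0 h to 8 h of meiosis (circles, 1 library each) and in growing cells (squares, mit.), with 3 h and 6 h shaded. The S phase and recombination genes hht1, dmc1 and rec8 are highest at 3 h, mei4, cdc25 and sgo1 are highest at 5 h, spo4, spo6 and mes1 at 6 h, and isp3, mde5 and mug146 at 8 h.

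The pair of 7 h and 2 h, which shares no library with that of 6 h and 3 h, spans a wider interval of the same course. It is no repeat of the step, since its hours adjoin those compared. At 7 h 98.8% of the higher and 99.4% of the lower genes were on the 6 h side of their midpoint. In the pair of 7 h and 2 h, 264 of 4944 genes passed 4-fold upward (5.34%) and 387 downward (7.83%). Of the 166 genes higher at 6 h, 157 were also higher at 7 h, which is 94.6% of the former and 59.5% of the latter. Of the 361 lower genes 204 were also lower, which is 56.5% of one list and 52.7% of the other. Most genes were negative in any case, so a kept negative sign says little by itself. For 6 h against 3 h, 3653 of 4936 genes were below 0, and the median for 7 h against 2 h was -0.53. All but 1 gene of each direction kept its sign. The exceptions were mfm3 (-0.27 in that pair) and SPBC36.02c (54.8 RPKM at 3 h and 12.4 at 6 h, but 4.97 at 2 h and 9.50 at 7 h), which was named after its values were seen. Core histones had 2 members lower and a median of -1.51 for 7 h against 2 h, against 8 members and -3.54 for 6 h against 3 h. The wtf family had 18 members higher and a median of 2.23 for 7 h against 2 h, against 5 members and 1.03.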

How the data were processed

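Total RNA of SPB2819 cells was sequenced from stranded libraries, as the labels' protocols state. The deposited table holds RPKM per gene, per the file headers, and columns named TPM. The latter were treated as a score, since in the deposited table they are not in constant proportion to RPKM: their ratio takes 10 values in each library, and it served only to set relative depth. Tools in the submitters' processing notes are STAR 2.7.3a, Bowtie 1.2.2, cutadapt 1.18, bedtools 2.26.0 and 2.27.1, SAMtools 1.9 and bcl2fastq 1.17, with ASM294v2 and mm10 as builds. No source used here gives the counting tool or its use of strand, so overlapping and antisense genes are uncertain.

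Whole reads came back for 5142 of 5157 genes (largest distance from a whole number 5.6e-09). A few low genes may be off by a common divisor. The reads give depth and exact binomial 95% counting intervals of ratios, which cover counting error only. No count test was run, since 1 library a side leaves no residual spread.

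A gene was called at 4-fold in log2(RPKM + 1) with 5 RPKM or more in 1 of both libraries. Rescaling divided each library by its median ratio to the geometric mean of the 10 libraries (5074 genes). Scripts were tested on simulated data. The comparison, the gene lists and the rule for named genes were chosen with earlier results of these data known. The rule takes 26 genes in any case, up to 6 members of each list with the largest difference, and outside the lists the 12 symbols and 4 systematic names with the largest difference each way. For prefix families it also takes the member closest to the list median. It took 237 genes, of which the text gives those that describe each group. Some of them are not reported here. Some genes stand in several lists. Gene names were matched to RefSeq's annotation of another build (ASM294v3), by symbol for 3636 genes, by systematic ID for 1392 and by synonym for 102, and not for 27. It was used for names and products, with no coordinates. Alternatives tried were other scalings, pseudocounts, filters and folds, and 7 h against 2 h. Scripts ran under SciPy 1.17.1, NumPy 2.4.6, matplotlib 3.10.9 and pandas 2.3.3, in Python 3.11.15.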

Additional observations from a re-analysis of the deposited data

How the results depend on the processing

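The counts of higher and lower genes, 166 and 361, and the median of all genes, -0.62, moved with the scaling and the threshold. Median ratio rescaling gave 311, 121 and 0.0084, 75th percentile scaling 228, 194 and -0.24, and leaving the reads of the 10 highest genes out of the totals, chosen after seeing the data, 192, 253 and -0.41. These 10 genes took 4.63% of reads at 3 h and 18.1% at 6 h. A pseudocount of 5 left 217 lower genes, an 8-fold threshold 79 higher and 47 lower, and 7 h against 2 h gave 264 higher. Without a filter, with a filter of 20 RPKM, with a pseudocount of 0.1 and over protein-coding genes alone, all 3 values stayed within the limits set (1.5 times for counts, 0.1 for the median). Of 237 named genes, rescaling took 23 out of the calls and added 14. Among the called named genes mfm3 alone changed sign in these alternatives, at -0.27 for 7 h against 2 h. The cause of these changes was not tested beyond the scaling itself. Motifs in promoters were planned and not run, since no sequence of the files' build was used here. No paired analysis was possible because each time has 1 library and no test was made.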
